A study of Mus musculus with 2 samples.

Results

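Retinoic acid is made and destroyed locally in the testis, and the genes described here are those of its synthesis, breakdown, carriage and receptors. They were chosen by symbol: Rara, Rarg, Rdh10, Aldh1a1, Aldh1a2, Cyp26a1, Cyp26b1, Crabp1 and Stra6. Of these 9 genes 8 have a row among the 20476 genes of the deposited count table, and Cyp26a1 was not analysed here. The study profiled total testicular cells of adult mice of the strain C57BL/CJ;ICR by droplet-based single-cell RNA sequencing of 2 genotypes, WT and miR-202-/-, the latter lacking a microRNA known from the gonads. There was 1 library per genotype, and the sources used here do not say how many animals stand behind each. Names of the barcodes, the tags that mark single droplets, end in 1 or 2, and no label ties these marks to a genotype. All barcodes were therefore read as 1 pool, values are given under each mark, no genotype was compared, and no significance test was run.

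Vitamin A reaches cells as retinol, which STRA6 takes up. RDH10 oxidises retinol to retinal, and the retinal dehydrogenases ALDH1A1 and ALDH1A2 turn retinal into retinoic acid. CRABP1 binds retinoic acid in the cytoplasm, the CYP26 enzymes break it down, and the nuclear receptors RARA and RARG carry its signal to genes as partners of the RXR receptors. In the testis retinoic acid drives the change from undifferentiated to differentiating spermatogonia and, with Stra8, the entry into meiosis.

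The table held 28245 barcodes and 327708213 unique molecular identifiers (UMIs, counts of captured mRNA molecules), with 3529 to 244157 UMIs per barcode and 73 barcode sequences that occur under both marks. Barcodes were gated by marker genes, none of which is a gene described here. A marker was raised in a barcode when its UMIs exceeded the 95% Poisson quantile at 1.5 times its mean share, and a gate needed at least 3 markers and 25% of its list raised. This gave 9 germ gates, 6 somatic gates and 16734 barcodes of no gate, at a median of 4577 UMIs. The gates held 70 undifferentiated and 203 differentiating spermatogonia, 291 barcodes at meiotic entry, 131 from leptotene to zygotene, 715 pachytene, and 372 diplotene and dividing. They also held 1153 early round, 300 late round and 7259 elongating spermatids, 619 Sertoli, 120 Leydig, 99 macrophage, 79 T and NK, 84 stromal and peritubular and 16 endothelial barcodes. Gate names say only which markers were raised. Of the meiotic entry barcodes 234 also passed another gate, and early and late round spermatids differed in only 0.731% of the genes tested by the rule given next. The Leydig markers Cyp17a1 and Insl3 were raised in 80.8% and 90.0% of the Leydig gate and Dcn in 91.7% of the stromal gate. The Sertoli gate had a median of 6 of its 15 markers raised. Cst9, Cst12 and Aard led, raised in 90.0%, 84.2% and 77.2% of its barcodes, while the Sertoli factors Sox9 and Wt1 were raised in 16.5% and 18.4%.

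Levels are CPM (the UMIs of a gene per 1000000 UMIs of a gate), followed in brackets by exact 95% Poisson intervals. Ratios have conditional binomial intervals and shares of barcodes Clopper-Pearson intervals, and all of these cover counting error only. A call between gates needed a ratio of 2 or more one way under mark 1 and again under mark 2, and 20 UMIs in the higher gate. A count of 0 was set at a floor of 3 counts. Each germ gate was compared with the one before it in the textbook order, and each somatic gate with the Sertoli gate.

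The receptors act through a short DNA element, printed here because genes of the pathway itself carry it. It is a direct repeat of a hexamer, which is AGGTCA or its variant AGTTCA, or else GGGTCA or its variant GGTTCA, and a spacer of 5 bases between the hexamers is known to favour the pairs of RAR and RXR. On either strand such a repeat occurs in 0.0974% of 32851 RefSeq promoters of GRCm38.p6, each taken from 250 bases before to 50 after a gene's start. Of the 9 genes 8 have an entry there, and only Cyp26a1 holds the repeat. Of the 35 other retinoid genes with an entry Rarb holds it. Both are textbook targets of retinoic acid. The matches are shown with 6 bases on either side and the repeat in capitals, for Cyp26a1 at chr19:37697770-37697798 on the plus strand, which reads in the reverse orientation, and for Rarb at chr14:16575507-16575535 on the minus strand.
Cyp26a1: taaagaTGAACTTTGGGTGAACTaatttg
Rarb: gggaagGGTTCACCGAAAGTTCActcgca
The Crabp1 promoter is shown for contrast, since Crabp1 had a steep course over the germ gates. Its 120 bases before the start, at chr9:54764628-54764747 on the plus strand, hold no such repeat with a spacer of 1, 2 or 5 bases.
Crabp1: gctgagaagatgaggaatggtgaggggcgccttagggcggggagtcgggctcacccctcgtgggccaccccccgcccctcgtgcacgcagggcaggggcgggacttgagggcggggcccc
A match is a description of letters, and the lack of one in this window says nothing of elements elsewhere.

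For 3 genes 1 gate stood far above the others. Aldh1a1 stood highest in the Leydig gate, Cyp26b1 in the stromal gate and Crabp1 in differentiating spermatogonia, each with an interval above that of every other gate. Over the 8 germ comparisons 9 of 35 tested pairs of gene and comparison were called, 3 higher and 6 lower. Of all pairs tested over every gene 22.2% were called, 7.97% higher and 14.3% lower. The share among the 8 genes is near that background. Of the germ calls over all genes 35.8% were in the higher direction, and 51.1% with TMM factors, a scaling between gates. Over the 5 somatic comparisons 5 of 21 tested pairs were called, 3 higher and 2 lower, where 7.51% of all pairs were called. Over all genes 4.34% were called higher and 3.17% lower. Of the 5 calls 4 were of Aldh1a1 and 1 of Cyp26b1, all against the same Sertoli gate.

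**Figure D1:**
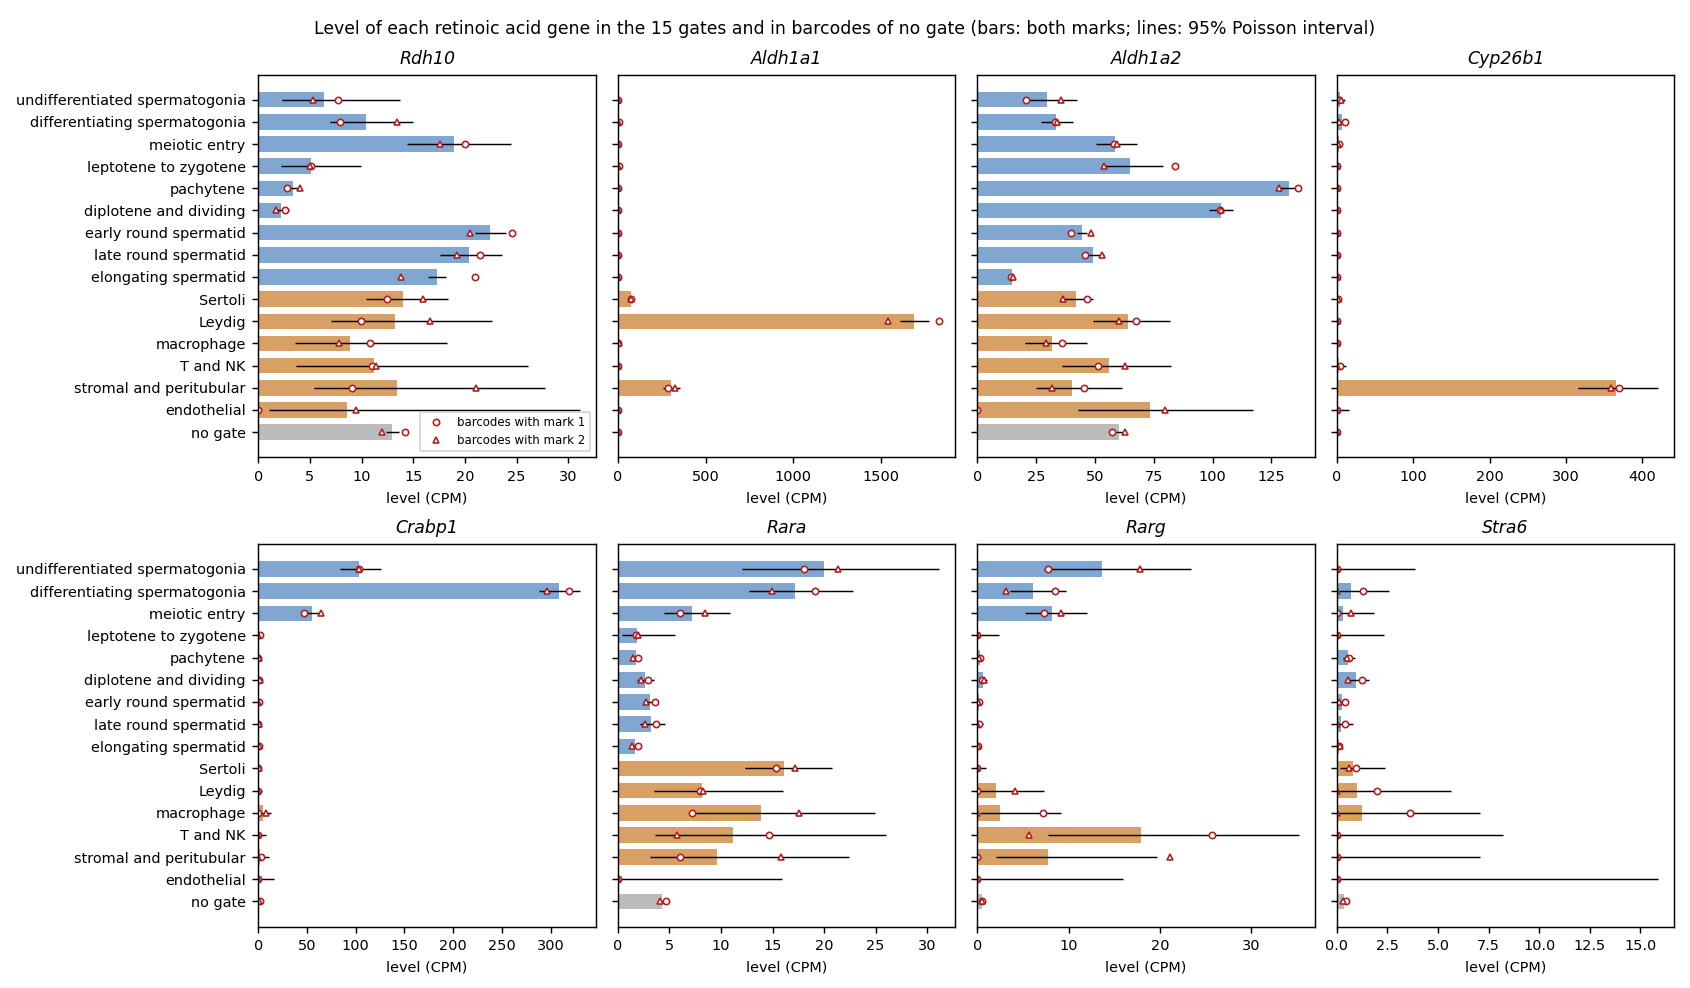
Level in CPM (x axis, a scale of its own in each panel) of the 8 genes in each gate (y axis: germ gates blue, somatic gates orange, barcodes of no gate grey). Bars are the level over both marks, lines its 95% Poisson interval, circles mark 1 and triangles mark 2. Aldh1a1 peaked in the Leydig gate at 1690 CPM, Cyp26b1 in the stromal gate at 365 CPM and Crabp1 in differentiating spermatogonia at 309 CPM.

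Rdh10, the retinol dehydrogenase of the first step, lies at chr1:16105774-16133734 on the plus strand. Its level was 6.31 CPM in undifferentiated spermatogonia (2.31 to 13.7), 10.4 CPM in differentiating ones (6.96 to 14.9) and 18.9 CPM at meiotic entry (14.4 to 24.4), with no call at these steps. It was called lower from leptotene to zygotene, at 5.05 CPM, with a ratio of 0.267 to meiotic entry (0.110 to 0.563) that rests on 8 UMIs, at a step where 12.9% of the genes tested were called lower. This call was lost with a stricter gate, with a looser gate and without barcodes that pass several gates.

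The lowest levels of Rdh10 were in spermatocytes, at 3.35 CPM in pachytene and 2.16 CPM in diplotene and dividing barcodes. Early round spermatids stood at 24.6 CPM under mark 1 and 20.5 CPM under mark 2, against 2.53 and 1.69 CPM in the diplotene gate. The gates did not overlap. The ratio was 10.4 (7.38 to 15.1), and 28.2% of the genes tested were called higher at this step. On the log2 scale the ratio was 3.38, and it was 4.33 with the stricter gate and 6.77 after subtraction of an estimated free RNA profile, that of the RNA-poorest barcodes of no gate. The order of the highest gates was early round (22.4 CPM), late round (20.4 CPM), meiotic entry (18.9 CPM) and elongating (17.3 CPM), and the intervals of neighbours in this order overlapped. This order depends on the processing: with TMM factors elongating spermatids came first, and with the stricter gate late round spermatids did. Early round spermatids themselves stood at 26.2 CPM with TMM factors and at 18.95 CPM with the stricter gate. Somatic gates lay between 8.61 and 14.0 CPM and barcodes of no gate at 12.98 CPM (12.35 to 13.63). None of the somatic comparisons of Rdh10 was called.

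Rdh10 was uneven within the spermatids. Hemgn is a listed marker of the late round gate, but it was raised in only 16% of that gate's barcodes. Over both round gates it was raised in 166 barcodes, which held 58.1 CPM of Rdh10 (52.1 to 64.5). The other 1287 held 16.7 CPM (15.5 to 18.1). The marks were alike in this, with 56.4 and 61.0 CPM in the raised and 17.4 and 16.2 CPM in the other barcodes. Aldh1a2 went the other way, with 14.5 CPM against 49.8 CPM, and so did Lrat, which stores retinol as esters, with 7.91 CPM against 24.2 CPM. Median depths were close, at 32476 and 27606 UMIs.

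In the elongating gate Rdh10 stood at 28.2 CPM in barcodes of at least 20000 UMIs, 12.6 CPM in those of 10000 to under 20000 and 10.5 CPM in those below 10000. The marks differed here beyond counting error, with 20.9 CPM under mark 1 and 13.8 CPM under mark 2, a ratio of 0.658 (0.596 to 0.727). They did so less in early round spermatids, with a ratio of 0.835 (0.727 to 0.958). In the deepest class of elongating barcodes the marks held 34.4 and 19.98 CPM, and in the middle class 12.9 and 12.4 CPM. Depth moved with the level, and its part in the result was not tested. By the same 2-fold rule 1 of 34 tested pairs of gene and gate differed between the marks, Aldh1a1 in pachytene (1.26 and 0.629 CPM), where 3.1% of all pairs did. The interval of that ratio, 0.203 to 1.12, includes 1, and 11 of the 23 UMIs under mark 1 lay in 1 barcode.

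Aldh1a1, a retinal dehydrogenase at chr19:20492715-20643465 on the plus strand, was highest in the Leydig gate, the steroid-making cells between the tubules. Its level there was 1832 CPM under mark 1 and 1542 CPM under mark 2, or 1690 CPM in all (1610 to 1773). The stromal gate followed with 287 and 327 CPM and the Sertoli gate, the nurse cells of the tubule, with 73.8 and 76.1 CPM. The other gates with a UMI held 5.06 CPM or less. The T and NK and endothelial gates held 0 UMIs, with upper interval limits of 8.24 and 15.9 CPM. The marks did not overlap between the Leydig, stromal and Sertoli gates, and these 3 gates differed from each other beyond their intervals.

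Against the Sertoli gate Aldh1a1 was 22.6-fold higher in the Leydig gate (19.9 to 25.7), where 7.33% of the genes tested were called higher, and 4.03-fold higher in the stromal gate (3.29 to 4.92), where 4.86% were. It was called lower in macrophages, with 4 UMIs and a ratio of 0.0677 (0.0183 to 0.175), where 3.94% of the genes were called lower. It was also called lower in the T and NK gate, which held 0 UMIs, where 3.63% were called lower. With that count at the floor the ratio was 0.0895, and the upper interval limit was 0.111. With free RNA subtracted the stromal ratio was 0.98 on the log2 scale, against 2.01, and no longer called. The Leydig ratio was then 3.37 against 4.50 on the log2 scale and the macrophage ratio -5.49 against -3.89, both still called. In that setting the free RNA estimate of the Sertoli gate, the base of all these ratios, stood at its cap of 95% under both marks.

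A UMI of Aldh1a1 was found in 111 of 120 Leydig barcodes, or 92.5% (86.2% to 96.5%), at a median of 5 and up to 106 UMIs in a barcode. In macrophages, at a like median depth of 5641 against 5092 UMIs, 4.04% of barcodes held a UMI. Sertoli barcodes fell between, with 195 of 619 (31.5%). After thinning to 3500 UMIs per barcode the shares were 87.1% in Leydig, 49.9% in stromal, 22.6% in Sertoli and 2.10% in macrophage barcodes. The tenth of Leydig barcodes richest in Aldh1a1 held 47.0% of its UMIs. By depth the level was 1124 CPM in the 88 Leydig barcodes under 10000 UMIs, 2784 CPM in the 25 barcodes of 10000 to under 20000 and 1182 CPM in the 7 deeper ones, so that it did not follow depth in 1 direction.

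The Leydig level carries a limit of sequence, since Aldh1a7, a near-identical copy of Aldh1a1, was counted there at 74.1 CPM and the sources used here do not say how reads were divided between them. On the opposite strand C730002L08Rik and the pseudogene Gm6684 overlap Aldh1a1, and the same sources do not say whether counting used the strand. Over the germ gates Aldh1a1 stayed between 0 and 3.16 CPM. Its only germ call, 2.79-fold higher in elongating than in late round spermatids (1.17 to 8.71), rests on 5 UMIs in the late round gate, at a step where 7.26% of the genes tested were called higher. On the log2 scale the ratio was 1.48. The call was lost with a looser gate at 1.12, without barcodes that pass several gates at 2.12 and with free RNA subtracted at 1.69, so that the fold was larger in the last 2 of these settings.

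**Figure D2:**
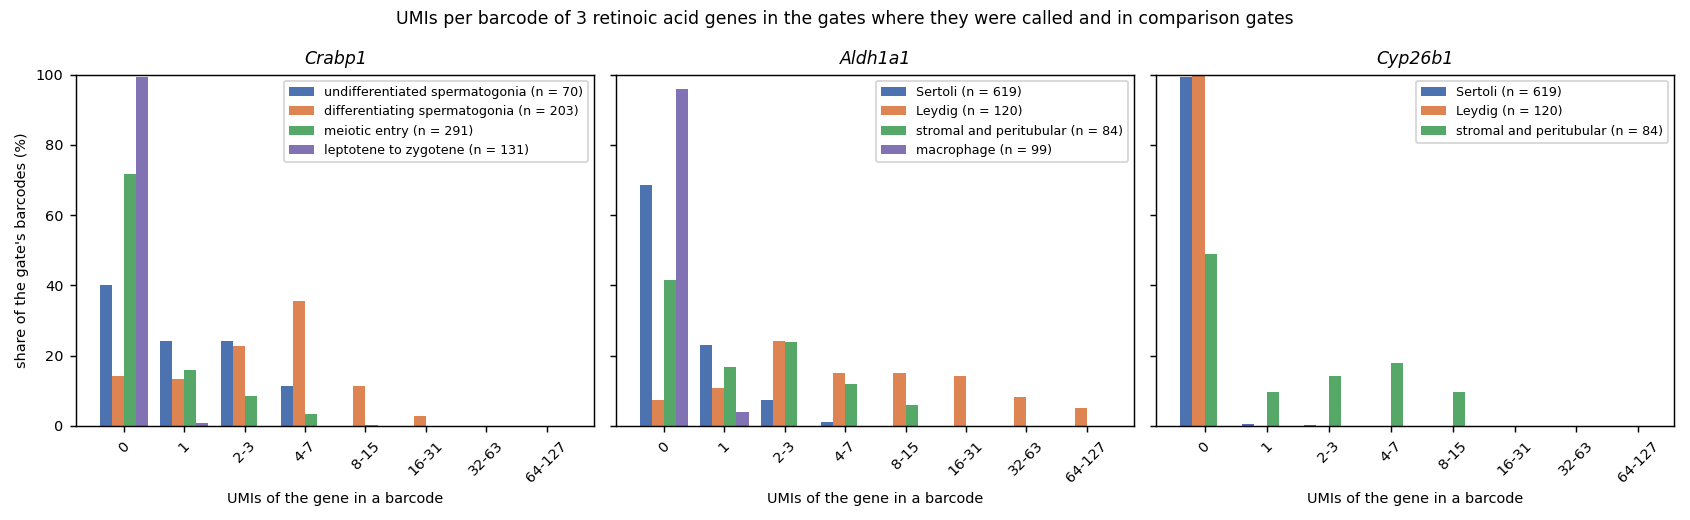
Share of a gate's barcodes in percent (y axis) by the number of UMIs of the gene in a barcode (x axis, classes that double in width), for Crabp1, Aldh1a1 and Cyp26b1 in the gates named in each panel with their number of barcodes. Aldh1a1 reached 106 UMIs in a Leydig barcode, while 41 of 84 stromal barcodes held no UMI of Cyp26b1 and 29 of 203 differentiating spermatogonia none of Crabp1.

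Aldh1a2, the retinal dehydrogenase at chr9:71215789-71296243 on the plus strand, had a broad course with its peak in spermatocytes. Its level was 29.4 CPM in undifferentiated and 33.3 CPM in differentiating spermatogonia, 58.6 CPM at meiotic entry and 65.0 CPM from leptotene to zygotene. Pachytene held 136 and 128 CPM under the marks (133 CPM, 129 to 137) and the diplotene gate 103 and 104 CPM. The ratio of the diplotene gate to pachytene, 0.779 (0.736 to 0.825), was not called, at a step where 29.5% of the genes tested were called. The step into pachytene was 2.04-fold over both marks (1.68 to 2.51) but 1.62-fold under mark 1, and no step up to diplotene was called.

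The level of Aldh1a2 was called lower at the step into early round spermatids and again at the step into elongating ones. Early round spermatids held 39.8 and 48.4 CPM, a ratio of 0.429 to the diplotene gate (0.400 to 0.460) at a step where 25.6% of the genes tested were called lower. Elongating spermatids held 14.4 and 15 CPM, a ratio of 0.300 to the late round gate (0.269 to 0.334) at a step where 30.8% were. With TMM factors the last ratio was -0.70 on the log2 scale and not called, since those factors moved every gene by 1.04 at that step, and it was also lost with the stricter gate at -0.93, against -1.74. The first call was lost with the looser gate.

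Somatic gates held Aldh1a2 at 31.7 to 73.2 CPM, none called against the 42.0 CPM of the Sertoli gate, and barcodes of no gate held 60.3 CPM. The highest of these, the endothelial gate, rests on 17 UMIs, of which 12 lay in 1 barcode. A UMI was found in 95.2% of pachytene barcodes and in 23.2% of macrophages, at median depths of 40133 and 5641 UMIs. Thinned to 3500 UMIs the shares were 35.3% and 12.5%. The protamine and transition protein genes, whose transcripts belong to late spermatids, took up 4.40 to 6.36% of the UMIs of the somatic gates. The part of free RNA in the somatic levels of Aldh1a2 was not tested.

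Cyp26b1, the enzyme that breaks retinoic acid down, lies at chr6:84571414-84593908 on the minus strand and was found mostly in 1 gate. The stromal and peritubular gate held 369 and 359 CPM under the marks (365 CPM, 315 to 421) and 71.2% of the 267 UMIs of the gene in the table. Differentiating spermatogonia came next with 10.5 and 3.15 CPM, and the other gates with a UMI held 4.204 CPM or less. The ratio of the stromal to the Sertoli gate was 226 (102 to 624) on 6 Sertoli UMIs. On the log2 scale this was 7.82, with 6.44 under the stricter gate, 6.89 with free RNA subtracted and 8.70 without the deepest barcodes. The Leydig, macrophage, endothelial, leptotene to zygotene and early round gates each held 0 UMIs. The upper interval limits were 3.745 CPM in the Leydig gate and 15.9 CPM in the endothelial gate.

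Most stromal barcodes carried Dcn, a matrix gene of fibroblasts, and few carried muscle genes. Of its 84 barcodes 79 had fewer than 2 of the contractile genes Acta2, Myh11 and Tagln raised, with 4970 CPM of Dcn and 4.22 CPM of Acta2. These 79 held 170 UMIs of Cyp26b1, a level of 359 CPM (307 to 417). The 5 contractile barcodes, with 3171 CPM of Acta2 as in peritubular muscle, held 20 UMIs in 3 barcodes, a level of 428 CPM (262 to 662). The intervals overlapped, so that no difference between these barcodes was detectable at this depth.

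Enzymes of both directions met in the stromal barcodes. Of the 84 barcodes 33 held a UMI of Aldh1a1 and of Cyp26b1, 16 of Aldh1a1 alone, 10 of Cyp26b1 alone and 25 of neither. Cyp26b1 was thus found in 67.3% of the barcodes with Aldh1a1, and Aldh1a1 in 76.7% of those with Cyp26b1. Over all 84 barcodes 41 held no UMI of Cyp26b1 and 35 held none of Aldh1a1. Whether the genes go together was not tested. Deeper barcodes are likelier to hold a UMI of any gene, and this was not corrected for.

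Crabp1, the cytoplasmic carrier of retinoic acid, lies at chr9:54764748-54773110 on the plus strand and showed a narrow window in the early germ line. Its level was 103 CPM under either mark in undifferentiated spermatogonia and 319 and 296 CPM in differentiating ones. It was 46.7 and 64.8 CPM at meiotic entry. From leptotene to zygotene 1 UMI was found in 131 barcodes. The gates did not overlap at any of these steps under either mark.

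All 3 steps were called for Crabp1. The first was 2.998-fold higher (2.43 to 3.73), where 3.22% of the genes tested were called higher. The second had a ratio of 0.178 (0.150 to 0.211), where 6.36% were called lower. The third had a ratio of 0.0115 (0.000289 to 0.0648), where 12.9% were. The third ratio, -6.45 on the log2 scale, was -3.47 without barcodes that pass several gates and -5.08 with free RNA subtracted. Its call was lost at -2.62 with the stricter gate, which leaves 18 leptotene to zygotene barcodes. From pachytene on and in the somatic gates with a UMI the level was 5.06 CPM or less. The Leydig, T and NK and endothelial gates held 0 UMIs, with upper interval limits of 3.745, 8.24 and 15.9 CPM.

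A UMI of Crabp1 was found in 174 of 203 differentiating spermatogonia (85.7%, 80.1% to 90.2%) and in 1 of 619 Sertoli barcodes (0.162%), at median depths of 12376 and 4702 UMIs. Thinned to 3500 UMIs the shares were 58.1% and 0.138%, with 27.6% in undifferentiated spermatogonia and 12.9% at meiotic entry. Crabp1 was first among the 10 genes that set the differentiating gate apart by fold, none of which was a marker of that gate.

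Stra8, which retinoic acid induces and which marks meiotic entry, divided the differentiating spermatogonia. The 99 barcodes with a Stra8 UMI held 351 CPM of Crabp1 (322 to 382) and the 104 without one 257 CPM (229.5 to 286.5). Rdh10 stood at 15.6 CPM with Stra8 (9.97 to 23.2) and 4.00 CPM without (1.299 to 9.34), which rests on 24 and 5 UMIs. For both genes either mark was higher with Stra8 than without. Intervals overlapped for Rara, at 17.5 and 16.8 CPM, and for Aldh1a2, at 35.7 and 30.4 CPM. Median depths were 13447 UMIs with Stra8 and 11271 without, and the part of depth was not tested. At meiotic entry, where 167 barcodes held a Stra8 UMI and 124 did not, the intervals overlapped for Crabp1 (49.1 and 63.7 CPM) and Rdh10 (22.6 and 13.5 CPM).

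**Figure D3:**
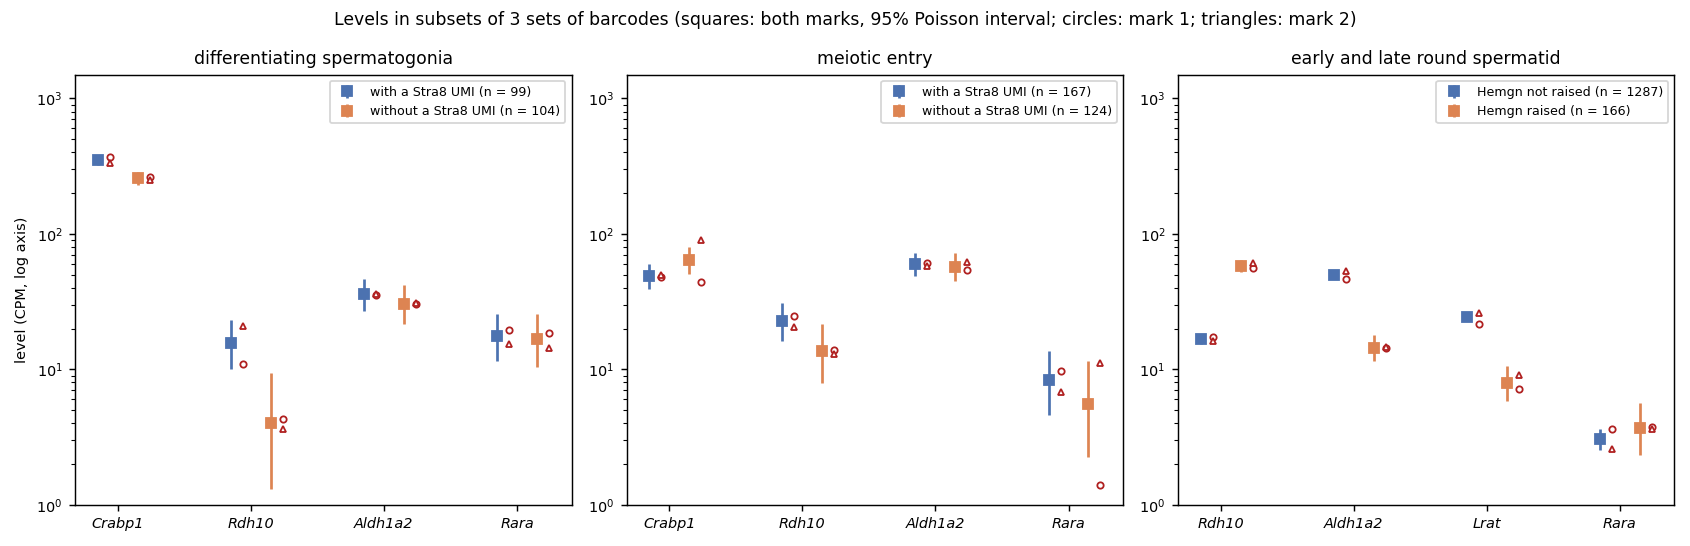
Level in CPM (y axis, log scale) of the genes on the x axis in differentiating spermatogonia and meiotic entry barcodes with and without a Stra8 UMI, and in round spermatids with and without Hemgn raised. Squares are the level over both marks with 95% Poisson intervals, circles mark 1 and triangles mark 2. Rdh10 stood at 58.1 CPM in the round spermatids with Hemgn raised and at 16.7 CPM in the others.

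Rara, the receptor at chr11:98927818-98974942 on the plus strand, was low in all gates. Undifferentiated spermatogonia held 18.0 and 21.3 CPM (19.97 CPM, 12.02 to 31.2), differentiating ones 19.1 and 14.9 CPM, and the Sertoli gate 15.3 and 17.2 CPM (16.2 CPM, 12.3 to 20.8). Macrophages followed with 13.9 CPM, and the intervals of these 4 gates overlapped. Meiotic entry held 7.17 CPM, and from leptotene on the level stayed between 1.67 and 3.2 CPM. The step from meiotic entry to leptotene was called lower, with a ratio of 0.264 (0.0506 to 0.880) on 3 UMIs. The call was lost under each of 6 alternatives. On the log2 scale the ratio was -1.92, and it was smaller in 3 of them, at -1.54 with the stricter gate, -0.81 with the looser gate and -1.51 with free RNA subtracted. It was as large or larger in the other 3, at -1.92 with a minimum of 50 UMIs, -2.24 without barcodes that pass several gates and -2.27 without the deepest barcodes. No somatic comparison of Rara was called.

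Rarg, the receptor at chr15:102234938-102257517 on the minus strand, had 163 UMIs in the table. Undifferentiated spermatogonia held 13.7 CPM (7.28 to 23.4), meiotic entry 8.14 CPM (5.27 to 12.02) and differentiating spermatogonia 6.09 CPM (3.55 to 9.75), which overlap. From pachytene on the level was 0.571 CPM or less. The leptotene to zygotene gate held 0 UMIs, with an upper interval limit of 2.33 CPM. The Sertoli gate held 0 UMIs in 619 barcodes, with an upper limit of 0.993 CPM. The highest level, 17.9 CPM in the T and NK gate, rests on 8 UMIs, of which 7 lay under mark 1. Without the 5% of barcodes with the most UMIs in each gate, undifferentiated spermatogonia ranked first. Only 2 germ comparisons of Rarg had enough UMIs to be tested, and neither was called. At the step out of meiotic entry 25 UMIs stood against 0, with a ratio interval of 0 to 0.308 over both marks. No call was possible there. Under mark 1 the floor of 3 counts equalled 5.14 CPM, and meiotic entry held 7.27 CPM, less than 2-fold above it.

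Stra6, the retinol receptor and transporter of the cell surface, at chr9:58063788-58153996 on the plus strand, had few UMIs in this table. Its 109 UMIs gave 1.27 CPM or less in the gates with a UMI, and none of the 15 gates held 20 UMIs. Gates at 0 UMIs had upper interval limits of up to 15.9 CPM, in the endothelial gate. A course of Stra6 over the gates was not detectable at this depth. The gene Ccdc33 overlaps it on the opposite strand.

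Of 53 other genes of retinoid handling and response that were listed, 43 have a row in the table. Those with the highest level in a gate are named from each of 7 groups of function. Among transport and storage genes Rbp4, the retinol carrier of blood, peaked at meiotic entry at 110 CPM after a 2.96-fold higher level in differentiating than in undifferentiated spermatogonia (1.95 to 4.67). Dgat1, which can esterify retinol, stood at 103 CPM in pachytene.

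Rdh11, which reduces retinal, stood at 268 CPM in the diplotene gate, where Rdh10 was lowest, and fell at the next step to a ratio of 0.474 (0.455 to 0.494). Adh5 and Dhrs7 peaked in the Leydig gate, as Aldh1a1 did, at 214 and 169.5 CPM. Aldh1a3, a further retinal dehydrogenase, stood at 55.7 CPM in the stromal gate, where Cyp26b1 was highest, and was 9.86-fold above the Sertoli gate (5.43 to 18.2). Bco1, which cleaves carotene to retinal, peaked in elongating spermatids at 78.7 CPM. Of the carriers Fabp5 stood at 81.2 CPM in the Leydig gate, and Crabp2 reached 2.28 CPM at most among gates with a UMI.

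Among the other receptors Rxra stood at 38.6 CPM in the Leydig gate and was 12.8-fold higher in early round spermatids than in the diplotene gate (8.20 to 21.1), as Rdh10 was. Rxrb stood at 37.2 CPM in differentiating spermatogonia, and Rarb, whose promoter carries the repeat printed above, reached 1.43 CPM at most among gates with a UMI. Ppard, a receptor that can also bind retinoic acid, stood at 7.82 CPM at meiotic entry. The cofactors Crebbp and Ncor1 peaked early, at 196.5 CPM in undifferentiated spermatogonia and 174 CPM at meiotic entry, and Med1 reached 106 CPM in the diplotene gate. Of the genes known to respond to retinoic acid Rarres2 stood at 257.5 CPM in the stromal gate, Rec8, a meiotic cohesin, at 68.3 CPM in late round spermatids and Rarres1 at 42.6 CPM in the Leydig gate.

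At the step out of meiotic entry 1 of 24 tested genes of the list was called higher and 10 lower. Their median was -0.92 on the log2 scale, beside -0.21 for all genes tested, of which 16.8% were called and 12.9% called lower. In the Leydig gate 9 of 29 were called higher than in the Sertoli gate and 0 lower, with a median of 0.20 beside -0.26. Of all genes 12.2% were called there and 7.33% called higher. In the stromal gate 5 of 25 were higher and 0 lower, where 7.78% of all genes were called and 4.86% called higher. From undifferentiated to differentiating spermatogonia 4 of 25 were higher and 0 lower, where 5.27% of all genes were called and 3.22% called higher. In elongating spermatids 3 of 33 were higher and 11 lower than in late round spermatids, with a median of -0.53 beside -0.735 for all genes. Of all genes 38.1% were called there and 30.8% called lower. Higher and lower calls of the list were 3 and 6 of 27 at meiotic entry, where 10.3% of all genes were called. They were 0 and 2 of 28 in pachytene (12.2%) and 3 and 1 of 28 in the diplotene gate (29.5%). They were 4 and 9 of 26 in early round (53.8%) and 0 and 1 of 25 in late round spermatids (0.731%). Against Sertoli they were 4 and 1 of 26 in macrophages (9.53%) and 1 and 3 of 24 in T and NK (6.46%). In the endothelial gate they were 0 and 0 of 24 (1.38%). No list was tested.

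**Figure D4:**
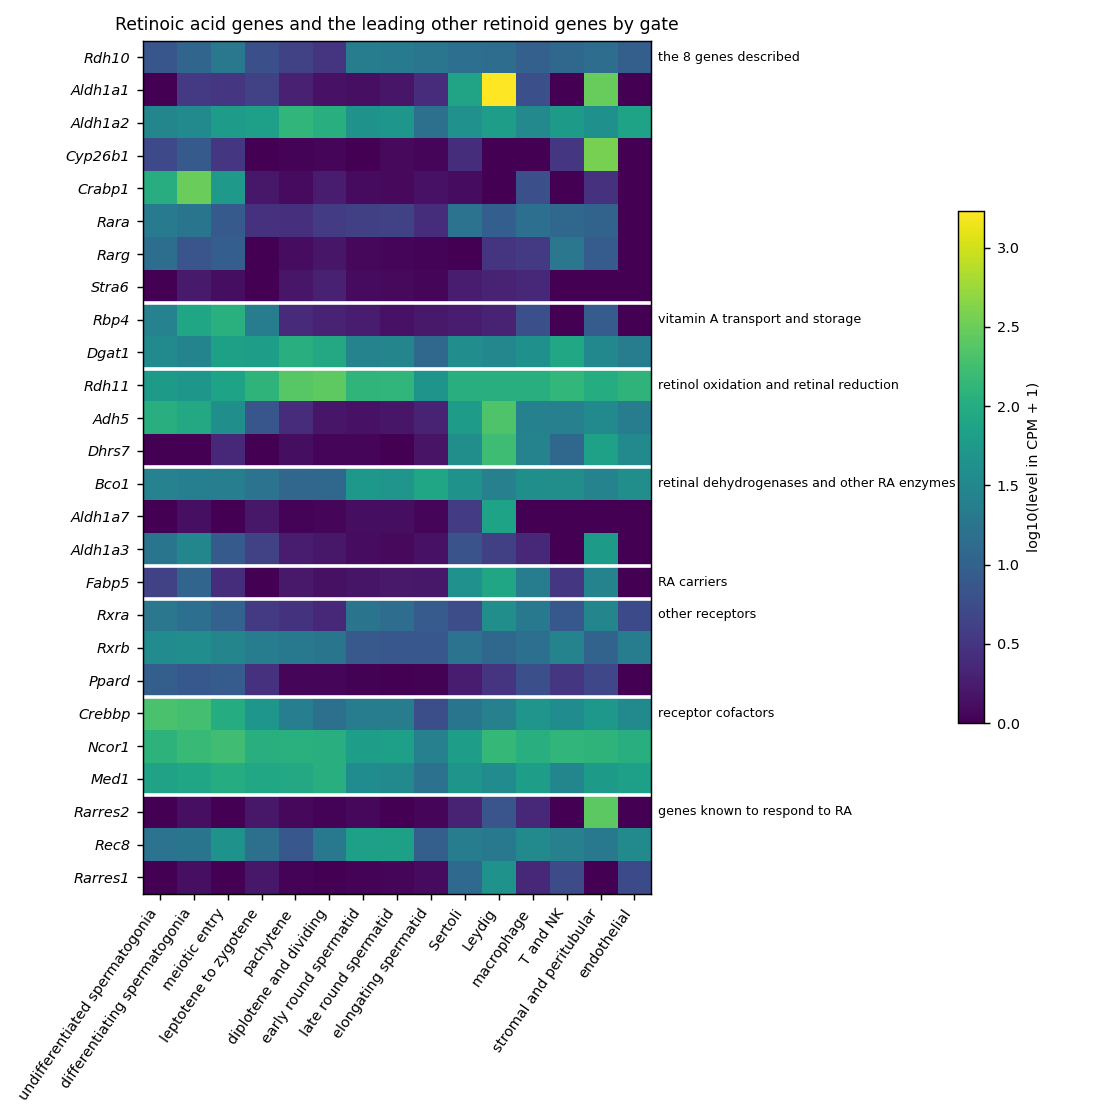
Colour gives log10 of the level in CPM plus 1 for the 8 genes described and for up to 3 genes of each of 7 groups of other retinoid genes (rows), in the 15 gates (columns). The Leydig column is bright for Aldh1a1, Adh5 and Dhrs7 and the stromal column for Cyp26b1, Aldh1a1 and Rarres2.

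The genes whose pattern was most like each of the 8 were found by Pearson's r of log2(CPM + 10) over the 15 gates, among genes with at least 200 UMIs in the gates that are no gate markers. The gates share library and pool and differ in depth, so r is only a description. Aldh1a1 was closest to Gsta2 (r = 0.99), Acsbg1 and Cpe, all highest in the Leydig gate. Cyp26b1 was closest to Cygb (r = 0.99), Adamts5 and Nrep, all highest in the stromal gate, and Crabp1 to Rcor2 (r = 0.99), Nanos1 and Nlrp4c, all highest in differentiating spermatogonia. Aldh1a2 was closest to A430005L14Rik (r = 0.92), Zbtb3 and Krcc1, all highest in pachytene. Rdh10 was closest to Itsn2 (r = 0.92), Gm31393 and Chd5 of the round spermatid gates. Rara was closest to Hk2 (r = 0.90), Usf1 and Abcc1, Rarg to Dennd4a (r = 0.89) and Rpl12, and Stra6, at its low counts, to Coro1b (r = 0.82), Gm41750 and Acad10.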

How the data were processed

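The deposited table holds raw UMI counts per gene and barcode for total testicular cells. The authors made these counts with a 10x Genomics 3' kit, per the labels' protocols, and with Cell Ranger 1.3.1, Seurat 3.2.2 and GRCm38, per the submitters' processing notes. The sources used here do not say how reads of like genes or of opposite strands were counted. The 2 marks held 158740437 and 168967776 UMIs in 12935 and 15310 barcodes, with up to 19.98% mitochondrial UMIs.

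Counts were summed over each gate in Python 3.11.15 with numpy 2.4.6 and scipy 1.17.1, with no further filter on barcodes and no doublet caller. TMM factors came from edgeR 4.0.16 in R 4.3.3. The call rule was tried on simulated Poisson counts of the pachytene and differentiating gates, with changes placed only in genes of many UMIs. That trial does not cover calls that rest on few UMIs or on smaller gates. The members and lists were chosen with earlier results of these data known, and the gate scoring and the splits by Stra8, Hemgn, contractile genes and depth after the counts were seen. Besides the 9 genes, the text names for each the 3 genes with the highest r and up to 3 genes of each of 7 functional groups with the highest CPM in a gate with enough UMIs. Of the genes this rule picks, 2 are not reported here. Positions are from GENCODE on GRCm38. Alternatives varied the gates, free RNA, scaling, fold, UMI minimum and deepest barcodes.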

Additional observations from a re-analysis of the deposited data

How the results depend on the processing

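The 9 calls over germ gates became 6 to 13 under 10 alternatives and 1 added after seeing the data, which left out the barcodes shared between marks. The 5 somatic calls became 5 to 7. Of the 9 germ calls 4 remained with the stricter gate, 5 with the looser gate, 6 without barcodes that pass several gates, 7 after subtraction of free RNA and at least 8 under every other alternative. Of the 5 somatic calls 4 remained after subtraction of free RNA and 5 under every other alternative. Over all calls and alternatives 136 values stayed called, 17 were no longer called and 0 reversed. The settings at 1.5-fold and with no minimum of UMIs only loosen the rule on the same sums. No call could be lost there, so the calls kept in them carry no information. Crabp1 from undifferentiated to differentiating spermatogonia and on to meiotic entry, Rdh10 from diplotene to early round spermatids, Aldh1a1 in the Leydig gate and Cyp26b1 in the stromal gate were called under all 11. Aldh1a1 between late round and elongating spermatids gave no value with the stricter gate. The free RNA estimate took all protamine and transition protein UMIs of a gate as free and reached its cap of 95% in the Sertoli gate. It raised the highest level of Aldh1a1 to 5327 CPM, of Cyp26b1 to 1247 CPM, of Crabp1 to 516 CPM, of Rarg to 55.4 CPM and of Stra6 to 4.49 CPM. The share of higher calls over all genes in somatic gates was 57.8%. It was 80.8% with no minimum of UMIs and 41.9% with at least 50, 44.7% with free RNA subtracted, 46.0% at 1.5-fold and 46.9% with the stricter gate. Depth limits Rarg, Stra6 and the endothelial gate. No paired analysis was possible because each genotype has 1 library and no column is tied to a genotype.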
